A study of Mus musculus with 8 samples.

Results

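RNA of 5 choroid plexus genes (*Ttr*, *Folr1*, *Kcnj13*, *Clic6*, and *Otx2*) and 5 genes of ciliated ependymal cells (*Foxj1*, *Ccdc153*, *Tmem212*, *Rsph1*, and *Dynlrb2*) was followed through all 8 libraries of a mouse corpus callosum RNA sequencing experiment, as a measure of ventricular tissue lying next to the dissected white matter. The 10 genes were taken by symbol from the 25239 gene symbols of the table; the rule uses no values, although the genes were proposed with earlier results of these data known. All 10 passed the filter of 0.1 CPM on average (reads of a gene scaled to the effective size of its library), as did 18123 of all 25239 symbols. The choroid plexus genes had 321 reads in all, 156 of them from *Clic6*, and *Kcnj13* and *Otx2* had no more than 3 reads in 6 and 7 of the 8 libraries. RNA from the ependymal genes was low and present in every library, with 1801 reads of 79448819.

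The corpus callosum was dissected from male C57BL/6 mice (C57BL/6J in the study's methods) that were 8 to 12 weeks old when used, after bilateral common carotid artery stenosis (BCAS), in which a microcoil around each common carotid artery lowers blood flow to the brain, or after a sham operation without coils. Mice were wild type (WT) or TRPA1-KO, a global *Trpa1*-/- line backcrossed to C57BL/6J in which the channel is missing from all cells and not from one cell type. Each label had 1 sham library from day 14 and 1 BCAS library from each of days 7, 10, and 14, each sample being from 1 mouse by the study's methods, so the days stood in for replicates and their spread holds the difference between days and between animals. The libraries held 7896071 to 12952093 reads on genes, and 3 reads, taken here as the smallest level that could be shown, were worth 0.235 to 0.378 CPM; intervals given below cover counting error only, because reads copied by PCR are not independent molecules.

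The choroid plexus is a folded sheet of cuboidal epithelium over a core of stroma and vessels that hangs in the brain ventricles and secretes cerebrospinal fluid along with carrier proteins such as transthyretin. Ependymal cells line the ventricle walls, and the motile cilia on their surface, built under the control of the transcription factor FOXJ1 and RFX factors, move that fluid. The corpus callosum forms the roof of the lateral ventricles, so its lower face is covered by ependyma, and the choroid plexus, the striatum, and the neuroblasts of the subventricular zone lie nearby.

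*Trpa1*, the targeted gene, was examined first. The library labelled WT after the sham operation had 1 *Trpa1* read, and the BCAS libraries labelled WT had 0 reads on each of the 3 days. The library labelled TRPA1-KO had 10 reads after the sham operation, and those labelled TRPA1-KO had 11, 3, and 7 reads on days 7, 10, and 14 after BCAS. The gene went against the genotype labels. Values per gene do not show where in *Trpa1* the reads lie, and reads from outside the deleted part would check nothing, which was not tested, so libraries are named by their labels, and each direction between genotypes is one between labels. The BCAS day 7 and day 10 libraries labelled WT also stood apart, since *Gfap*, the intermediate filament gene of astrocytes and named here after its values were seen, was at 1415 and 1060 CPM there. It was at 157 CPM on day 14 with that label, at 167, 169, and 427 CPM on days 7, 10, and 14 after BCAS labelled TRPA1-KO, and at 200.4 and 234 CPM after the sham operation (labels WT and TRPA1-KO). Main values are therefore also given without each of these libraries.

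The tissue label was checked against its markers. The myelin genes *Mbp* and *Mobp* had means of 5896 and 2183 CPM, and the list of 10 oligodendrocyte genes averaged 238 ± 24.3 CPM per kb of exon (SD over 8 libraries). The same mean per length was 80.9 ± 18.2 for 8 astrocyte genes, 43.8 ± 14.3 for 9 genes of striatal neurons, and 41.2 ± 3.79 for 8 genes of cortical neurons, so RNA of genes known from striatal and cortical neurons was present in each library. It was 2.71 ± 0.511 for the 5 ependymal genes and 0.374 ± 0.257 for the 5 choroid plexus genes. Neuroblast genes of the subventricular zone, led by *Dcx*, *Dlx1*, and *Sox11*, averaged 2.66 ± 0.231, and meningeal fibroblast genes, led by *Igf2*, *Col1a2*, and *Dcn*, averaged 0.924 ± 0.173. Genes of capillary endothelium, led by *Flt1*, *Slco1c1*, and *Ly6c1*, averaged 9.94 ± 0.949, those of hippocampal neurons, led by *Wfs1*, *Prox1*, and *Fibcd1*, averaged 2.92 ± 0.288, and those of thalamic neurons, led by *Rora*, *Slc17a6*, and *Prkcd*, averaged 1.43 ± 0.192. In bulk tissue, fewer cells of a type and less RNA per cell cannot be told apart.

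**Figure D1:**
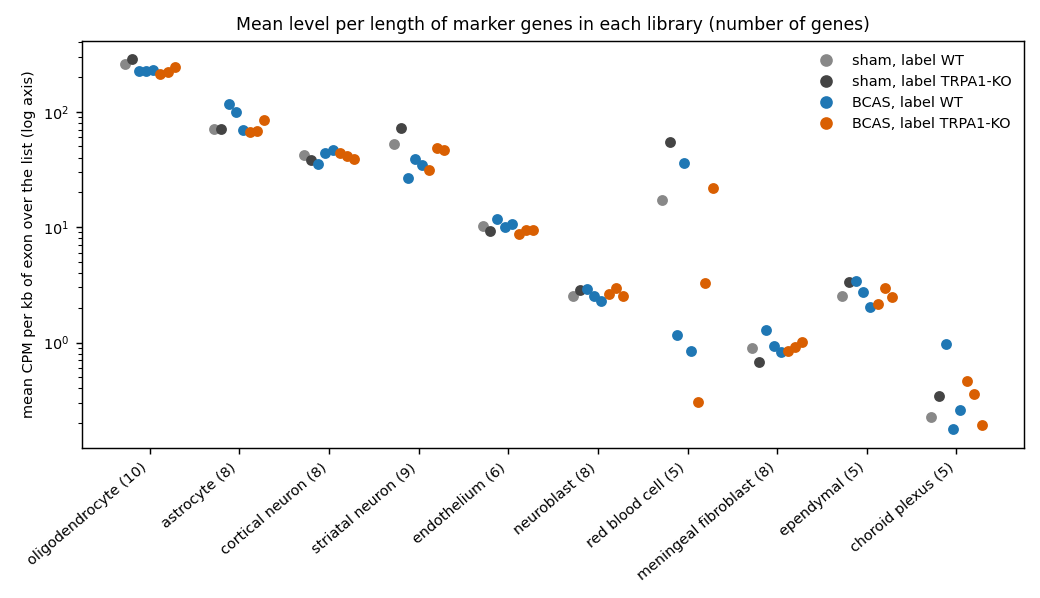
Mean CPM per kb of exon over the genes of each marker list (log axis, number of genes in brackets), with 1 point per library coloured by operation and label. The choroid plexus genes lie between 0.177 and 0.963, below every other list shown in 7 libraries, the red blood cell genes being lower (0.304 against 0.468) on BCAS day 7 labelled TRPA1-KO, the ependymal genes between 2.02 and 3.41, and the striatal genes between 26.5 and 71.6.

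Promoters, the 250 bases before to 50 bases after a transcript start in RefSeq on GRCm38.p6, were available for 5 of the 10 genes: *Dynlrb2*, *Ccdc153*, *Tmem212*, *Kcnj13*, and *Otx2*. They were searched on both strands for TGTTTAC, a core bound by forkhead factors such as FOXJ1, for GTTGCCA, a core bound by RFX factors, and for TAATCC, the core bound by OTX factors, which occur in 3.65%, 4.38%, and 7.06% of 32851 mouse promoters. The promoters of *Dynlrb2*, *Ccdc153*, and *Tmem212* held none of the 3 motifs, one of 4 *Otx2* promoters held GTTGCCA, and another held TAATCC. The pair of ependymal promoters below is shown because, with the RFX core shortened to GTTGCC after the sequences were seen, both held it, as did 2 of the 4 *Otx2* promoters and 12.5% of all promoters, whereas those of *Tmem212* and *Kcnj13* did not. *Dynlrb2* encodes a light chain of dynein, and its promoter lies at chr8:116504765-116505064 on the plus strand. *Ccdc153* encodes a coiled-coil protein of motile cilia, and its promoter lies at chr9:44240427-44240726 on the plus strand. Capitals mark GTTGCC and, in *Dynlrb2*, the stretch from GTTGCC through AAC with 4 bases between, the form of a full X-box, which was held by 0.463% of all promoters. The matches describe the sequence and are no evidence of binding, and a promoter without a match says nothing about the factors.
Dynlrb2: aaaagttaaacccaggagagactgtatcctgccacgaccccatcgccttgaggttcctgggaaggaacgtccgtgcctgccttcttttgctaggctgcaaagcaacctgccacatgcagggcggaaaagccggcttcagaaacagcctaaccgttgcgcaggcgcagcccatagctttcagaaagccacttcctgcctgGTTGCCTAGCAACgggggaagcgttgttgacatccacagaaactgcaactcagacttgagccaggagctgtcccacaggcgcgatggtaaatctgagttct
Ccdc153: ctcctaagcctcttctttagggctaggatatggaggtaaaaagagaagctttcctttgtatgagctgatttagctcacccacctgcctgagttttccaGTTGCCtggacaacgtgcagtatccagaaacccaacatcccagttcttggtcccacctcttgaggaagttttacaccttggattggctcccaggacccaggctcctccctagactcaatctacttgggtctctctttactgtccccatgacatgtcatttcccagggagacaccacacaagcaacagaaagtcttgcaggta

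Among the choroid plexus genes, *Ttr*, which encodes the thyroid hormone carrier transthyretin and is among the most abundant transcripts of choroid plexus epithelium, had 91 reads in all 8 libraries together. After the sham operation, 0.313 CPM (4 reads) was found with the label WT and 0.384 CPM (4 reads) with the other label. After BCAS, it had 4.45 CPM (50 reads), 0.378 CPM (3 reads), and 0.768 CPM (7 reads) on days 7, 10, and 14 in the libraries labelled WT. In those labelled TRPA1-KO, it had 1.78 CPM (16 reads), 0.747 CPM (7 reads), and 0 CPM on the same days, where the floor of 3 reads was worth 0.312 CPM. Both day 7 libraries lay above the other 6, and the 95% Clopper-Pearson interval of day 7 labelled WT, 3.30 to 5.86 CPM, did not reach that of any other library. *Folr1*, the folate receptor that carries folate across the epithelium, was also highest in the day 7 libraries, at 0.978 CPM (11 reads, label WT) and 0.891 CPM (8 reads, label TRPA1-KO), although the other libraries lay between 0.219 and 0.767 CPM and the counting intervals overlapped. The day 7 libraries were the 2 highest for 2 of the 5 choroid plexus genes and 0 of the 5 ependymal genes, for 1 of 25 other choroid plexus genes and 3 of 48 other cilia genes tested, and for 4.56% of all genes tested. This was counted after it was noticed in *Ttr* and is a description, with 1 library per label and day.

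*Clic6*, a member of the chloride intracellular channel family, was the choroid plexus gene with the most reads, 156. The sham libraries showed 2.19 CPM under the label WT and 3.26 CPM under TRPA1-KO. It was 1.69, 1.13, and 1.87 CPM on days 7, 10, and 14 after BCAS in the libraries labelled WT. It was 1.67, 1.92, and 1.66 CPM in those labelled TRPA1-KO. Both sham libraries thus lay above all 6 BCAS libraries. *Clic6* did not share the day 7 pattern of *Ttr*, and the library with the most *Ttr* was not the one with the most *Clic6*.

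*Kcnj13*, which encodes an inward rectifier potassium channel of the apical membrane, had 17 reads in all, with 0 in 2 libraries and at most 5 in one (0.534 CPM, BCAS day 10 labelled TRPA1-KO). Its exons overlap those of *Gigyf2* on the opposite strand, which had at least 560 reads per library, and it is not stated whether the counting used the strand, so reads of this pair cannot be told apart with certainty. *Otx2*, the homeobox factor that maintains choroid plexus epithelium, had 10 reads in all. They fell as 1 read in the sham library labelled WT, 0 in each BCAS library labelled WT, 4 in the sham library labelled TRPA1-KO, and 1, 1, and 3 in the BCAS libraries labelled TRPA1-KO, so that 7 of 8 libraries held no more than 3 reads. Its mean of 0.124 CPM passed the filter of 0.1 CPM only through the libraries labelled TRPA1-KO (0.228 CPM, against 0.0196 CPM under the label WT), so its differences below are values that support nothing. Exons of *Otx2* overlap those of the antisense gene *Otx2os1*, listed at 0 in every library, and of *Gm49154*.

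**Figure D2:**
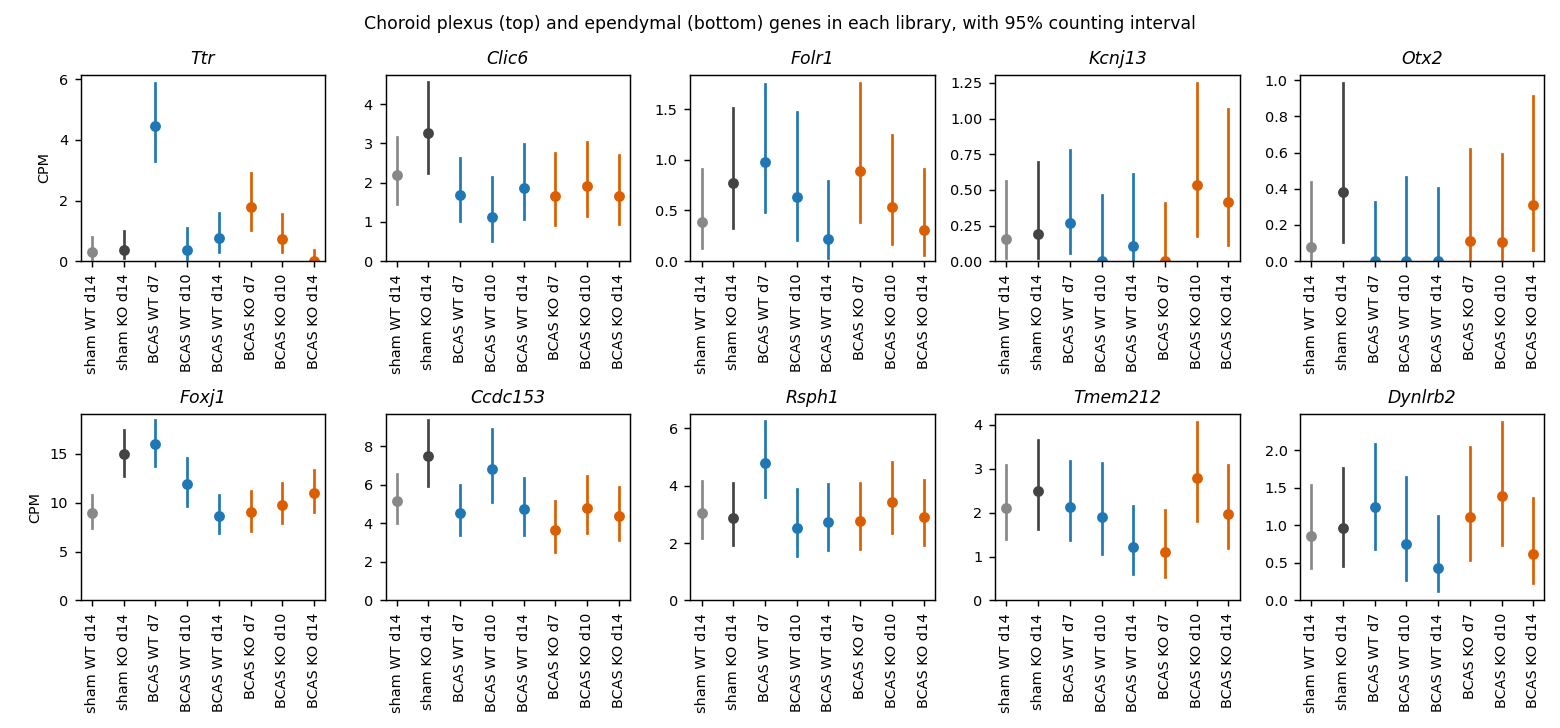
Level (CPM, linear axis from 0 that differs between panels) of each choroid plexus gene (top) and ependymal gene (bottom) in the 8 libraries. Points are single libraries and lines are 95% counting intervals; *Ttr* stands out on day 7 labelled WT at 4.45 CPM, and *Foxj1* lies between 8.67 and 16.01 CPM.

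A list of 30 other genes of the choroid plexus was measured beside these. Some genes of its epithelium, named after their values were seen, were near 0: *Cldn2*, a tight junction claudin, had 3 reads over all 8 libraries, *Kcne2*, a potassium channel subunit, had 10, *Tmem72* and *Lmx1a* had 1 each, and the most any library held of *Kcne2* was 0.378 CPM. Others of its epithelium had more reads, with 98 for *Kl*, 61 for *Sostdc1*, 60 for *F5*, 39 for *Prlr*, 36 for *Calml4*, and 35 for *Aqp1*, each at a mean of 0.425 to 1.24 CPM. The 5 most abundant genes of the list were *Enpp2* (334.5 CPM, autotaxin), *Trpm3* (52.4 CPM, a cation channel), *Sulf1* (36.6 CPM, a sulfatase of heparan sulfate), *Cab39l* (27.0 CPM), and *Htr2c* (17.5 CPM, a serotonin receptor), of which *Enpp2* is also made by oligodendrocytes and *Htr2c* by neurons. For every gene of this list, here and in the comparisons below, the cells that its RNA came from were not tested. The mean over the list, the measure used for the marker lists above, was 3.24 ± 0.168 CPM per kb (29 genes with a length). It was 0.374 ± 0.257 for the 5 members, so the lists lay apart by their means. The median gene of the list had 0.327 CPM per kb, near 0.257 CPM per kb for the median of the 5 members. Of the 30 genes, 25 passed the filter.

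The ependymal genes were measured with more reads. *Foxj1*, the factor that drives the motile cilia program, was the most abundant, with 904 reads in all. The sham libraries showed 8.997 CPM under the label WT and 14.96 CPM under TRPA1-KO. The BCAS libraries labelled WT showed 16.01, 11.97, and 8.67 CPM in the order of the days. Those labelled TRPA1-KO showed 9.02, 9.82, and 11.03 CPM. The 2 highest values belonged to BCAS day 7 labelled WT and to the sham library labelled TRPA1-KO, and the sham libraries of the 2 labels differed by more than their counting intervals (7.43 to 10.8 against 12.7 to 17.5 CPM).

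*Ccdc153* had 5.16 CPM (sham labelled WT) and 7.48 CPM (sham labelled TRPA1-KO). After BCAS, the 3 days in order showed 4.54, 6.81, and 4.72 CPM under the label WT, and 3.67, 4.80, and 4.37 CPM under TRPA1-KO. Its highest value was again that of the sham library labelled TRPA1-KO, while day 7 labelled WT, highest for *Foxj1*, lay below the sham libraries. *Rsph1*, a protein of the radial spoke head of the axoneme, was 4.80 CPM on day 7 labelled WT and 2.52 to 3.42 CPM in the other 7 libraries. *Tmem212*, which encodes a membrane protein found in ciliated cells, ranged from 1.11 CPM (day 7 labelled TRPA1-KO) to 2.78 CPM (day 10 labelled TRPA1-KO). *Dynlrb2*, whose promoter is printed above, ranged from 0.439 CPM (day 14 labelled WT) to 1.39 CPM (day 10 labelled TRPA1-KO) and rested on 4 to 14 reads per library. No single library was highest for all 5 genes.

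By GENCODE annotation on GRCm38, *Foxj1* lies at chr11:116330704-116335399 on the minus strand, *Rsph1* at chr17:31255019-31277383 (minus), *Tmem212* at chr3:27866066-27896368 (minus), *Ccdc153* at chr9:44240676-44247306 (plus), and *Dynlrb2* at chr8:116504974-116515915 (plus), and no exon of another gene overlaps theirs. Of the choroid plexus genes, *Clic6* lies at chr16:92485736-92541243 (plus), *Folr1* at chr7:101858331-101870788 (minus), *Kcnj13* at chr1:87386363-87394729 (minus), and *Otx2* at chr14:48657677-48673819 (minus), while *Ttr* is on chromosome 18.

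Per length, *Foxj1* was highest, with 4.31 ± 1.08 CPM per kb (SD, n = 8 libraries), followed by *Tmem212* (2.74 ± 0.799), *Ccdc153* (2.55 ± 0.633), *Rsph1* (2.29 ± 0.525), and *Dynlrb2* (1.66 ± 0.574). The choroid plexus genes followed, with *Ttr* (0.929 ± 1.22), *Clic6* (0.492 ± 0.158), *Folr1* (0.257 ± 0.120), *Kcnj13* (0.165 ± 0.149), and *Otx2* (0.0294 ± 0.0348). Neighbours in this order from *Tmem212* to *Rsph1* lay within 1 SD of each other, as did *Folr1* and *Kcnj13*, while *Ttr* and both its neighbours, like *Kcnj13* and *Otx2*, lay within the larger SD of each pair. *Ttr* in its highest library reached 3.75 CPM per kb, within the range of *Foxj1*, and in its lowest it was at 0.

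The spread over the 8 libraries was set against the spread that counting alone would give. *Ttr* had a coefficient of variation (CV) of 132%, against 29.6% from counting, a ratio of 4.44, and *Foxj1* had 24.9% against 9.41%, a ratio of 2.65. *Ccdc153* had a ratio of 1.78, and the other 7 members had ratios of 1.05 to 1.42, close to the spread that counting alone gives. For the 48 other cilia genes, the median ratio was 1.45, and 5 of them had a ratio of at least 2. As a description of how the genes varied together, the median Pearson r of log2(CPM + 1) over the 8 libraries was 0.48 for the 10 pairs of ependymal genes (8 of them above 0), 0.010 for the 10 pairs of choroid plexus genes (5 above 0), and 0.24 for the 25 pairs across both groups. These r values describe 8 libraries that differ in depth and composition, and *Kcnj13* and *Otx2* rest on few reads.

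**Figure D3:**
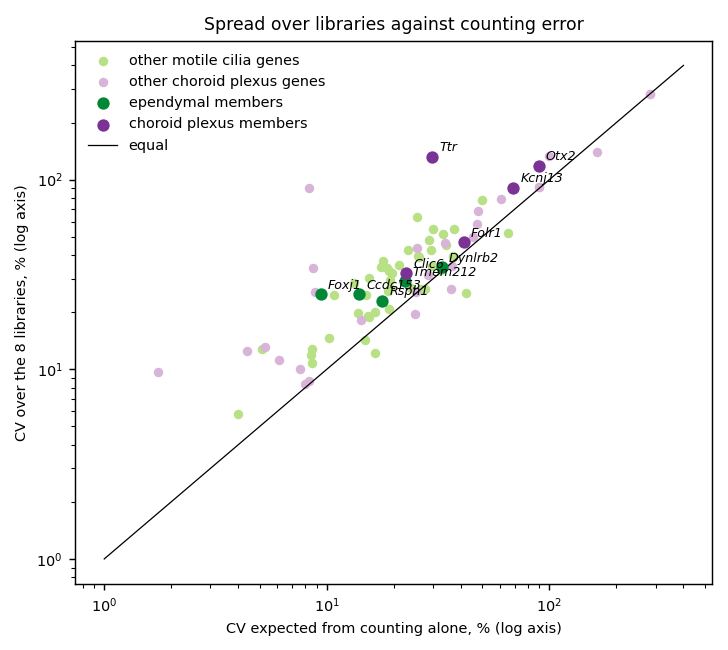
CV over the 8 libraries (percent, log axis) against the CV that counting alone gives (percent, log axis), with 1 point per gene, for the members and for the other choroid plexus and other cilia genes with any reads. The line marks equal values; *Ttr* (132% against 29.6%) lies farthest above it among the members.

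A list of 48 other ependymal genes was measured beside these, and all passed the filter. They are called other cilia genes here, although *Rarres2* among them is not a gene of cilia. Which cells their RNA came from was not tested. The most abundant were *Ccdc39* (62.6 CPM, an assembly factor of inner dynein arms), *Rfx3* (38.3 CPM, a factor of cilia genes), *Cfap65* (13.9 CPM), *Rarres2* (13.7 CPM, the chemokine-like chemerin), and *Drc1* (13.6 CPM, part of the nexin-dynein regulatory complex). *Ccdc39* lay between 58.6 and 67.3 CPM, with a CV of 5.80%, while the sum of the 5 ependymal members ranged from 17.7 to 28.8 CPM. The highest library was the sham library labelled TRPA1-KO for 14 of the 48, BCAS day 10 labelled WT for 14, and BCAS day 7 labelled WT for 10, whereas BCAS day 14 labelled WT was lowest for 15.

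The libraries with more ependymal RNA were compared with the levels of their neighbours. The summed level of the 5 ependymal genes was 28.8 CPM after the sham operation under the label TRPA1-KO, 28.7 on BCAS day 7 labelled WT, and 17.7 to 23.9 in the other 6. *Foxj1* alone gave 16.01 CPM of the sum on BCAS day 7 labelled WT. The 48 other cilia genes summed to 280 CPM in both of these libraries. They summed to 274 CPM on BCAS day 10 labelled WT and to 227 to 259 CPM in the rest, so the split rests largely on *Foxj1*. The summed level of 9 striatal genes, among them *Ppp1r1b* and *Pde10a*, was highest in the sham library labelled TRPA1-KO (2285 CPM) and lowest on BCAS day 7 labelled WT (868 CPM). The summed choroid plexus level was 4.99 and 7.38 CPM in these libraries and 2.14 to 4.45 CPM in the others. Red blood cell genes, led by *Hba-a1* and *Hba-a2*, whose values were identical, and *Hbb-bs*, summed to 202 CPM in the first and 4.45 CPM in the second. Cortical genes, among them *Slc17a7* and *Tbr1*, summed to 1594 and 1496 CPM, and neuroblast genes to 123 and 131 CPM, in a range of 111 to 132 CPM over all libraries. BCAS day 7 labelled WT was the highest library in the summed level of meningeal fibroblast genes (55.8 CPM, against 31.7 to 45.2 in the others), endothelial genes (256 against 205 to 233), thalamic genes (112 against 78.7 to 104), and astrocyte genes (6002 against 4243 to 5612). Beside the astrocyte sum, *Gfap* alone was at 1415 CPM there, against 1060 CPM on BCAS day 10 labelled WT and 157 to 427 CPM in the rest. The part of these lists in the values of *Ttr* and the ependymal genes was not tested.

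The comparison the study was built on sets the 3 BCAS libraries labelled WT against the 3 labelled TRPA1-KO, on log2(CPM + 1), which makes changes of genes with few reads look smaller than they are. Of the 10 genes, 5 were higher and 5 lower with the label WT. None had a p under 0.05 by limma, beside 4.2% of all 18123 genes tested, and none an adjusted p under 0.05, beside 0.0166% of them; edgeR called 1 at p under 0.05 (*Otx2*), beside 5.23% of all genes, and DESeq2 0, beside 3.28%. Neither called one after adjustment. The median log2 fold change was -0.11 for the choroid plexus genes and 0.075 for the ependymal genes, against 0.0010 for all genes, and with a library left out the choroid plexus median was -0.20 (without BCAS day 14 labelled WT) to -0.0074 (without day 10). *Foxj1* was 12.2 ± 3.68 CPM under the label WT and 9.96 ± 1.01 under TRPA1-KO (SD, n = 3 each), a log2 fold change of 0.24 (SE 0.21, limma adjusted p = 0.983, exact permutation p = 0.50). *Ttr* was 1.86 ± 2.24 against 0.843 ± 0.894 CPM, with a log2 fold change of 0.48 (SE 0.50, limma adjusted p = 0.983, exact permutation p = 0.60). Without BCAS day 7 labelled WT, the values of *Ttr*, *Foxj1*, and *Rsph1* were -0.12, 0.036, and -0.15, and the ependymal median was -0.15. Without BCAS day 10 labelled WT they were 0.87, 0.23, and 0.21, and the median was 0.097. The groups did not overlap for 1 of 10 genes, *Otx2*, beside 9.21% of all genes tested. That gene had 0 reads against 5 and passed the filter through the libraries where it was higher, so neither this nor its edgeR call is a result about it. Among the 48 other cilia genes, 30 were higher with the label WT, with a median of 0.079, and 2 had a p under 0.05, *Spef2* (0.51) and *Spag17* (0.60), which is 4.17% of the list and near the share of all genes. Among the 25 tested choroid plexus genes outside the members, 10 were higher and 1 had a p under 0.05, *Igfbp2* (1.06), a binding protein of insulin-like growth factors. Of other cell types, all 9 striatal genes were lower with the label WT (median -0.31, 1 with a p under 0.05). All 6 endothelial genes (2 with a p under 0.05) and 7 of 8 astrocyte genes (1) were higher. The part of these lists in the values above was not tested.

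Against the 2 sham libraries, the BCAS libraries labelled WT had 1 of 10 genes with a p under 0.05, beside 5.45% of all genes tested, and none with an adjusted p under 0.05, beside 0% of them. That gene was *Clic6*, at 1.56 ± 0.382 CPM after BCAS (n = 3) and 2.73 ± 0.757 CPM after the sham operation (n = 2), a log2 fold change of -0.54 (SE 0.22, limma p = 0.032, adjusted p = 0.895, exact permutation p = 0.10). It had a p of 0.26 and a log2 fold change of -0.33 without the sham library labelled TRPA1-KO, and a p of 0.104 without BCAS day 10 labelled WT. *Clic6* was also not called with a pseudocount of 0.1, with a filter at 1 CPM, with the day as a block, or by edgeR or DESeq2. At p under 0.05 edgeR called *Otx2* instead, beside 6.78% of all genes, and DESeq2 *Ttr*, beside 4.54%. No member was called by edgeR after adjustment, and DESeq2 gave *Ttr* no adjusted p. The lowest exact permutation p possible for 3 against 2 is 0.10. The groups did not overlap for 2 genes, *Clic6* and *Otx2*, beside 19.9% of all genes tested. *Otx2*, with 0 reads after BCAS, passed the filter only through other libraries, so neither this nor its edgeR call is a result about it. The median was -0.068 for the choroid plexus genes and -0.098 for the ependymal genes, against -0.0012 for all genes. With a library left out they were -0.16 to -0.014 and -0.31 to 0.057, the ependymal median being above 0 without BCAS day 14 labelled WT (0.057) or the sham library labelled TRPA1-KO (0.026). *Foxj1* was 12.2 ± 3.68 CPM after BCAS and 11.98 ± 4.22 CPM after the sham operation (log2 fold change 0.027, SE 0.25), and *Ttr*, at 1.86 ± 2.24 against 0.348 ± 0.04995 CPM, had a log2 fold change of 0.81 (SE 0.53, exact permutation p = 0.60), and one of 2.45 in edgeR and 2.44 in DESeq2 on the reads. Without BCAS day 7 labelled WT, *Foxj1* was at -0.17 and *Ttr* at 0.21, and without BCAS day 10 labelled WT they were at 0.022 and 1.20. Of the 48 other cilia genes, 18 were higher and 30 lower, and 2 had a p under 0.05, *Hydin* (-0.62, a protein of the central pair of microtubules) and *Dnah9* (-0.46, a heavy chain of outer arm dynein). Of the other choroid plexus genes, *Trpm3* was higher (0.34), and *Car12*, a carbonic anhydrase (-1.0003), and *Enpp2* (-0.25) were lower with a p under 0.05.

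The BCAS libraries labelled TRPA1-KO were set against the same 2 sham libraries. None of the 10 genes had a p under 0.05, beside 2.74% of all genes tested, and none an adjusted p under 0.05, beside 0.00552%; edgeR and DESeq2 called 0 by either rule, beside 2.85% and 1.4% of all genes at p under 0.05. *Clic6* was 1.75 ± 0.147 CPM after BCAS, with a log2 fold change of -0.42 (SE 0.22, limma p = 0.079, exact permutation p = 0.10), and *Ccdc153* was 4.28 ± 0.571 CPM after BCAS against 6.32 ± 1.64 CPM after the sham operation, with one of -0.46 (SE 0.23, limma p = 0.072, exact permutation p = 0.10). For both, the groups did not overlap, beside 18.6% of all genes tested. Without the sham library labelled TRPA1-KO their log2 fold changes were -0.21 and -0.23, and without the sham library labelled WT -0.63 and -0.69. The median was -0.0063 for the choroid plexus genes and -0.20 for the ependymal genes, against -0.0021 for all genes. With a library left out they were -0.18 to 0.16 and -0.28 to 0.024, so the direction of both turned. Of the 48 other cilia genes, 13 were higher and 35 lower, with a median of -0.13, and 4 had a p under 0.05, all lower: *Spag17* (-0.73), *Tekt1* (-0.68, a filament protein of axonemal microtubules), *Spef2* (-0.51), and *Rfx2* (-0.50, a factor of cilia genes). Of the other choroid plexus genes, *Kl* (0.51) and *Trpm3* (0.25) were higher, and *Car12* (-0.54) and *Calml4* (-0.53) were lower with a p under 0.05.

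Genes of other cell types also had an unadjusted p under 0.05 in both of these comparisons, which share the same 2 sham libraries and are not independent. Of all genes, 5.45% (label WT) and 2.74% (label TRPA1-KO) had a p under 0.05. An adjusted p under 0.05 was reached by 0% and 0.00552%, and in the lists below by 1 oligodendrocyte gene with the label TRPA1-KO. All 9 striatal genes were lower after BCAS, with a p under 0.05 for 9 under the label WT (median -0.86) and for 8 under TRPA1-KO (median -0.55), and of the 10 oligodendrocyte genes 9 were lower in each, 4 with a p under 0.05. All 5 red blood cell genes were lower as well (medians -2.20 and -2.06), with a p under 0.05 for *Hba-a1* and *Hba-a2* with the label TRPA1-KO. *Clic6*, *Car12*, and *Ccdc153* were highest in the sham library labelled TRPA1-KO, the library highest in striatal, oligodendrocyte, and red blood cell genes. In the other direction, 7 of 8 cortical genes were higher under the label WT and 8 of 8 under TRPA1-KO, with a p under 0.05 for 2 and 1, as were 7 of 7 and 6 of 7 thalamic genes, none with a p under 0.05, and 7 of 8 meningeal fibroblast genes under each label, 1 with a p under 0.05 under the label WT (*Col1a2*). The part of these lists in the values of the choroid plexus and ependymal genes was not tested.

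**Figure D4:**
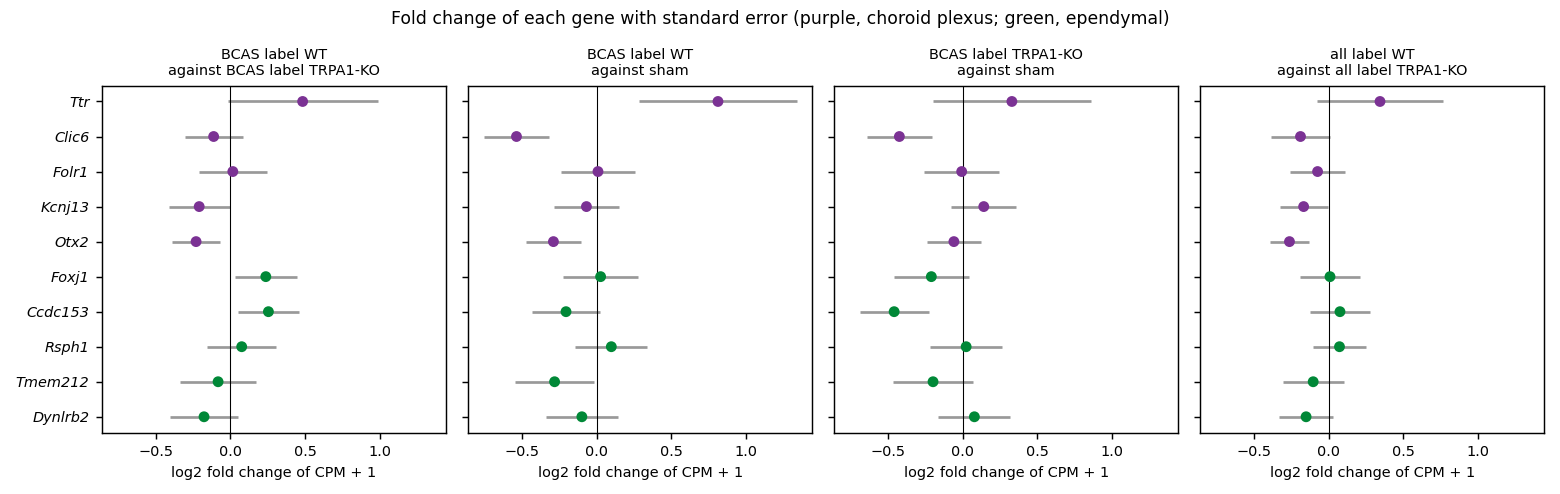
Log2 fold change of CPM + 1 (points) with its standard error (lines) for each of the 10 genes in the 4 comparisons, choroid plexus genes in purple and ependymal genes in green. *Clic6* lies lowest in BCAS labelled WT against sham (-0.54) and *Ttr* has the widest error in each comparison.

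Whether the change from sham to BCAS differed between labels was tested with an interaction term, added after the data were seen, with 1 sham library per label. None of the 10 genes had a p under 0.05, beside 1.5% of all genes tested. The spread behind this test comes from the BCAS libraries alone, since each sham group was 1 library. The largest estimate among the 10 was that of *Foxj1*, whose change was 0.91 larger on the log2 scale with the label WT. By day, the median ependymal difference of label WT minus label TRPA1-KO was 0.57 on day 7, with all 5 genes higher with the label WT, -0.33 on day 10 with 2 of 5 higher, and -0.17 on day 14 with 1 of 5 higher. Each of these days has 1 library per label and no replicate check.

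A last comparison took both operations together, with 4 libraries under each label. None of the 10 genes had a p under 0.05, beside 3.94% of all genes tested, and none an adjusted p under 0.05, beside 0.0497%; edgeR called 1 at p under 0.05 (*Otx2*), beside 4.76% of all genes, and DESeq2 0, beside 3.44%. Neither called any after adjustment. *Otx2* was the 1 gene whose groups did not overlap, beside 2.46% of all genes tested, at 0.0196 ± 0.0391 CPM under the label WT and 0.228 ± 0.141 CPM under TRPA1-KO (SD, n = 4 each). It rests on 1 read against 9. Its log2 fold change was -0.26 on log2(CPM + 1), -2.75 in edgeR, and -2.94 in DESeq2. The libraries labelled TRPA1-KO alone carried it past the filter, so neither the lack of overlap nor its edgeR call is a result about it. *Trpa1*, which goes against the labels, was ordered the same way across the labels. The median was -0.17 for the choroid plexus genes and 0.0088 for the ependymal genes, against 0.0021 for all genes, and *Foxj1* had a log2 fold change of 0.0088 (SE 0.20). Without BCAS day 7 labelled WT, *Foxj1* and the ependymal median were both at -0.16, and without BCAS day 10 labelled WT at -0.025 and -0.032. Of the 48 other cilia genes, 25 were higher with the label WT, and 1 had a p under 0.05, *Tekt4* (0.37); of the 25 other choroid plexus genes, 14 were higher and 1 had a p under 0.05, *Igfbp2* (0.91).

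The genes whose pattern over the 8 libraries was most like those of *Ttr* and *Foxj1* were sought among 15152 genes averaging 1 CPM or more, outside the choroid plexus and cilia lists, by Pearson r of log2(CPM + 1). For *Ttr* they were *Slc6a11*, an astrocytic transporter of GABA (r = 0.98, and 0.93 without the library highest in *Ttr*), *Ier3* (0.97 and 0.91), *Ern1*, a sensor of unfolded proteins in the endoplasmic reticulum (0.97 and 0.89), *Stx3* (0.95 and 0.90), and *Myo1c* (0.95 and 0.86). For *Foxj1* they were *Atg4a*, a protease of autophagy (0.99), *Ddost* (0.97), *Entpd2*, an ectonucleotidase (0.97), *Rtel1* (0.96), and *Psenen*, a subunit of gamma-secretase (0.96). With 8 libraries and 15152 genes, high values of r occur readily, and these are a description of the libraries.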

How the data were processed

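RNA of the mouse corpus callosum was sequenced in 8 libraries, grouped by deposited label, operation, and day. The authors selected polyadenylated RNA, used HISAT 2.1.0 for mapping to GRCm38, subread 2.0.1 for counting, and edgeR 3.34.1 for normalization; the strand setting and annotation are not given in the sources used here. The deposited signal is read counts divided by effective library size and scaled to CPM, with sums of 966202 to 1022161 per library. All values (100%, within 0.01 read) were whole multiples of 1 read, so 7896071 to 12952093 reads per library were recovered.

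The members and gene lists were chosen with earlier results of these data known. The test was limma 3.58.1 (lmFit, eBayes with trend; R 4.3.3) on log2(CPM + 1) over the 18123 genes averaging 0.1 CPM or more, two-sided, with Benjamini-Hochberg adjustment over all of them. The BCAS groups were compared in their 6 libraries, and comparisons with sham used all 8 in 1 fit, the 2 sham libraries forming 1 group that both comparisons share. Single genes also had exact permutation tests over libraries. By the study's methods each sample came from 1 mouse, so p-values between the BCAS groups measure the spread between mice and days together. The sham group held 1 library of each label, so the spread in comparisons with sham also holds a difference between labels. The main comparison of all libraries of the labels had no term for the operation, so its spread also holds sham against BCAS.

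Other settings tried were a filter at 1 CPM or none, a pseudocount of 0.1, equal library medians, limma's robust option, all 8 libraries in 1 fit, edgeR version 4.0.16 (quasi-likelihood) and DESeq2 version 1.42.0 on recovered reads, the day as a replicate block, and each library left out in turn. The interaction term and the shortened motifs were added after seeing the data. Positions and exon lengths come from GENCODE M21 on GRCm38; *Ecrg4* had no length. Named genes were the 10 members, *Trpa1*, the 3 most abundant genes of each other list (5 for the other choroid plexus and cilia genes), and the 5 genes most like *Ttr* and *Foxj1*; list genes with a p under 0.05, *Gfap*, and the choroid plexus genes near 0 were named after their values were seen. Not every gene that this rule names is reported here.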

Additional observations from a re-analysis of the deposited data

Results flagged for a closer look

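Among 20 sets of 4 libraries (each gene within each label), 3 held a library farther from the others than Dixon's 95% limit allows. For sets of like libraries, chance gives about 1 in 20. Each set here mixed 1 sham library with 3 BCAS libraries from different days, so that rate need not hold. *Ttr* was 4.45 CPM on BCAS day 7 labelled WT, with a gap to the next library labelled WT that took 89.0% of the range of the 4. *Clic6* was 3.26 CPM after the sham operation under the label TRPA1-KO, with a gap of 83.9% of the range. That library was the only sham library of its set, so an outlier and a difference between operations cannot be told apart there. *Otx2* was 0.0782 CPM in the sham library labelled WT, which is 1 read beside 3 libraries at 0, a pattern that meets the limit whatever the size of that 1 value, so it adds nothing to the other 2.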

How the results depend on the processing

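Of the 10 genes, none had an adjusted p under 0.05 in the 4 comparisons, and the standard errors of their log2 fold changes were 0.13 to 0.53, the largest for *Ttr*, whose spread exceeded counting error, and the smallest for *Otx2*, which had 10 reads. The call of *Clic6* in BCAS labelled WT against sham was lost with a pseudocount of 0.1 (a p of 0.055), a filter at 1 CPM (0.052), edgeR (0.055), DESeq2 (0.137), the day as a replicate block (0.126), and without BCAS day 10 labelled WT (0.104) or the sham library labelled TRPA1-KO (0.264). The count of genes with a p under 0.05 there was 0 with the pseudocount (5.58% of all genes) and with the filter at 1 CPM (5.74%), and 2 with no filter (5.25%). Between the BCAS groups it was 1 with no filter (4.62% of all genes) and with edgeR (5.23%), and between all libraries of the labels it was 1 with the pseudocount (3.95%), no filter (4.1%), and edgeR (4.76%), each time *Otx2*, which passed the filter only through the libraries labelled TRPA1-KO. With a library left out, the count lay between 0 and 1 between the BCAS groups, 0 and 1 for BCAS labelled WT against sham, and 0 and 2 for BCAS labelled TRPA1-KO against sham (*Clic6* and *Ccdc153* without the sham library labelled WT, beside 2.62% of all genes); the share of all genes was 1.79% to 10.2%, 1.97% to 11.1%, and 1.05% to 4.06% in these comparisons. In edgeR, *Otx2* was also called against sham with the label WT (6.78% of all genes called). It had 0 reads in those BCAS libraries and passed the filter only through others, so this call is no result about it. In DESeq2, *Ttr* had a p of 0.032 in that comparison (4.54%). The cause of these changes was not tested.

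The median log2 fold change of the choroid plexus genes between the BCAS groups was 0.19 with a filter at 1 CPM, which leaves *Ttr* and *Clic6*. For BCAS labelled WT against sham it was -0.47 with the pseudocount, 0.14 with that filter, -0.30 in edgeR, and -0.39 in DESeq2. Between all libraries of the labels it was 0.077 with that filter and -0.30 in DESeq2, and -0.26 to -0.031 with a library left out. With a library left out it was -0.20 to -0.0074 between the BCAS groups and -0.16 to -0.014 for BCAS labelled WT against sham, and the ependymal median was -0.15 to 0.17 and -0.31 to 0.057 there, and -0.16 to 0.12 between all libraries of the labels. For BCAS labelled TRPA1-KO against sham, it was -0.18 to 0.16, and that of the ependymal genes -0.28 to 0.024, with a library left out (0.024 without BCAS day 7 labelled TRPA1-KO). The lowest ependymal medians between the BCAS groups and between all libraries of the labels were those without BCAS day 7 labelled WT. Under the other settings, the ependymal median was 0.075 to 0.16 between the BCAS groups and 0.0082 to 0.041 between all libraries of the labels. Against sham it was -0.26 to -0.089 for BCAS labelled WT and -0.32 to -0.19 for BCAS labelled TRPA1-KO.

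Deviations of same-day libraries from their group means across 10744 genes correlated at -0.10, 0.0051, and -0.26 on days 7, 10, and 14 between the BCAS groups, and over all libraries of the labels at 0.19 for the sham pair and -0.057, -0.060, and -0.24 for the BCAS days. Not every pair was over 0.1, so the days, which are times after the operation, were not taken to pair the libraries. With the day as a replicate block, the count for BCAS labelled WT against sham was 0 (2.81% of all genes), and the choroid plexus median for BCAS labelled TRPA1-KO against sham was -0.26. Under the block the direction of single genes turned for *Folr1* (-0.30), *Foxj1* (-0.11), and *Rsph1* (-0.013) in BCAS labelled WT against sham, and for *Ttr* (-0.26), *Otx2* (0.022), *Rsph1* (-0.088), and *Dynlrb2* (-0.23) in BCAS labelled TRPA1-KO against sham.

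Under other settings, *Ttr* reached 1.21 between the BCAS groups and 1.07 between all libraries of the labels. It reached 2.45 in BCAS labelled WT against sham, where it was 0.22 under the block, and 1.28 in BCAS labelled TRPA1-KO against sham. *Folr1* also turned with the pseudocount between the BCAS groups (-0.014) and in BCAS labelled WT against sham (-0.048), and in edgeR (0.017) and DESeq2 (0.013) in BCAS labelled TRPA1-KO against sham. With a library left out, directions turned between the BCAS groups for *Ttr* (-0.12 to 0.87), *Folr1* (-0.15 to 0.20), *Clic6* (-0.20 to 0.014), *Tmem212* (-0.30 to 0.11), and *Rsph1* (-0.15 to 0.21). They turned in BCAS labelled WT against sham for *Folr1* (-0.16 to 0.20), *Kcnj13* (-0.16 to 0.014), *Foxj1* (-0.31 to 0.36), *Ccdc153* (-0.43 to 0.026), *Rsph1* (-0.13 to 0.23), and *Dynlrb2* (-0.26 to 0.057). They turned in BCAS labelled TRPA1-KO against sham for *Ttr* (-0.028 to 0.71), *Folr1* (-0.18 to 0.17), *Otx2* (-0.24 to 0.12), *Foxj1* (-0.55 to 0.13), *Tmem212* (-0.39 to 0.024), *Rsph1* (-0.043 to 0.069), and *Dynlrb2* (-0.043 to 0.23). They turned between all libraries of the labels for *Ttr* (-0.13 to 0.61), *Folr1* (-0.20 to 0.034), *Foxj1* (-0.16 to 0.15), *Ccdc153* (-0.039 to 0.25), *Tmem212* (-0.28 to 0.012), and *Rsph1* (-0.084 to 0.16). None of these turning values had a p under 0.05 in the fit as reported. The robust option, equal medians, and all 8 libraries in 1 fit turned no direction and moved no count or median of the 2 gene groups beyond the limits above.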
